A study of Mus musculus with 6 samples.

Results

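The MHC class II pathway was followed through 9 genes, H2-Aa, H2-Ab1, H2-Eb1, H2-DMa, H2-DMb1, H2-Oa, Cd74, Ciita and Rfx5, in whole-kidney RNA from mice with an activated Notch1 receptor and from their littermates. Each gene was read from its brightest probe set among those annotated to a single gene symbol, which gave a value for 8 of the 9 genes, out of 19937 genes measured in the series. H2-DMb1 has only a probe set that it shares with H2-DMb2 and counts as unmeasured. The NICD1 group held 3 kidney samples of genotype Pax8rtTA TREICNotch1, a pair of transgenes that together make the Notch1 intracellular domain, the part of the receptor that signals, inducible in tubule epithelium. The control group held 3 samples of littermates labelled wild-type, with the genotype given as normal. Each sample had its own Affymetrix array, the values are log2 expression after RMA normalization, and the arrays' number limits the precision. Age, sex, strain, the inducing agent and the time of induction are not given in the sources used here. Nothing in the labels says whether each sample came from a separate animal, so p-values measure only the spread between these samples. In whole tissue, more cells of a type and more RNA per cell cannot be told apart.

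MHC class II molecules are pairs of an alpha and a beta chain that hold peptides from engulfed proteins on the cell surface, where CD4 T cells read them. Dendritic cells, macrophages and B cells make them constantly, and interferon gamma can induce them in other cells, kidney tubule epithelium among them. The invariant chain, encoded by Cd74, escorts new dimers and fills their groove until proteases trim it, after which the DM molecule exchanges the last fragment for peptide and the DO molecule restrains DM. Transcription of these genes depends on the coactivator CIITA, which docks on the RFX, CREB and NF-Y factors that sit together on the X and Y boxes of class II promoters.

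Promoter windows in which letters of both boxes were found at a similar spacing are printed here, with the genes' responses given after them. RefSeq windows from 250 bases before to 50 bases after the gene start were at hand for 6 of the 9 members. In 4 of them, GNAAC, the inner letters of an X box, was followed on the gene's own strand by GATTGG, a Y box, with 26 or 27 bases between. Both stretches are in capitals below, each line running 5′ to 3′ along the gene's strand, build GRCm38.p6.
H2-Aa: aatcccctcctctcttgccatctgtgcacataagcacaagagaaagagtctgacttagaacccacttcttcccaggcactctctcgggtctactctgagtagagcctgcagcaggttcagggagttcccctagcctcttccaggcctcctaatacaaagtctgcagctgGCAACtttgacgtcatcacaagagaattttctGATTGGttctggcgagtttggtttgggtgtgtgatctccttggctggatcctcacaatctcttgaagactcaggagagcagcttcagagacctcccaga
H2-Eb1: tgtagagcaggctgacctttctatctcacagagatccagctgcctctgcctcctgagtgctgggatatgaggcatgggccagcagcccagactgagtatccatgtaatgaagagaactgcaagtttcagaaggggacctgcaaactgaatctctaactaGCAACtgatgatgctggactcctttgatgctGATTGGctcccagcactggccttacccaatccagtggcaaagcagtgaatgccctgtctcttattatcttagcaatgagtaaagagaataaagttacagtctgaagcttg
H2-DMb1: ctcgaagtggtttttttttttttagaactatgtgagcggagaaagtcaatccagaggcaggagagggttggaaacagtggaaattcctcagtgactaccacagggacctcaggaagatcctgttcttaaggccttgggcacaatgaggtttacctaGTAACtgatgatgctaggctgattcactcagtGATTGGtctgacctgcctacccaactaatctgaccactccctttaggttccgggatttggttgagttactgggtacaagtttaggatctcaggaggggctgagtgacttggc
H2-Oa: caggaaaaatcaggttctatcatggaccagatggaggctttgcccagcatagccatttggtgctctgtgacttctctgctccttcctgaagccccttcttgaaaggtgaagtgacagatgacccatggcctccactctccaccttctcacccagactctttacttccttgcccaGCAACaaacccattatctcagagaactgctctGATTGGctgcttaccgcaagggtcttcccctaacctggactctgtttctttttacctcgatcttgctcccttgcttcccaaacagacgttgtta
The windows lie at chr17:34287774-34288073 (H2-Aa, minus strand), chr17:34305617-34305916 (H2-Eb1, plus strand), chr17:34152941-34153240 (H2-DMb1, plus strand) and chr17:34092129-34092428 (H2-Oa, plus strand). Counted from the gene start, the Y box began at position -49 in H2-Aa, -60 in H2-Eb1, -62 in H2-DMb1 and -44 in H2-Oa. Allowing 25 to 29 bases between, the pair occurred in 52 of 32851 promoter windows (0.158%). This pairing was set after the windows had been read, so it describes them and tests nothing. Among motifs searched on both strands without regard to spacing, GATTGG was in a window of each of the 6 members, against 16.1% of all windows. CCNNGNNAC, another pattern for the X box core, was in a window of 5 of the 6 members, against 47.4% of all windows. The H2-Eb1 window held no CCNNGNNAC match, and the match in H2-Aa, at positions -180 to -172, lay outside the capitals. The 6 members gave 7 windows, so members are counted by gene and the shares by window. TGCGTCA, a form of the X2 box, was in 0 of the 6 and in 2.12% of all windows. Other forms of the X2 box were not searched, so this does not show that these windows lack one. In Rfx5, GATTGG and CCNNGNNAC matched in the same window, and in H2-DMa in different windows, at separate gene starts. Neither gene held the pair. A match is a stretch of letters and shows no binding. Of the 4 genes with the pair, H2-Aa and H2-Eb1 rose, H2-Oa was not called and H2-DMb1 is unmeasured, and their responses were not tested against each other.

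H2-Aa, H2-Ab1 and H2-Eb1, chains of the class II dimer, the invariant chain and the DM alpha chain were higher in NICD1 kidneys, while the DO alpha chain and both regulators of transcription did not pass the test. Of the 8 measured members, 5 rose and 0 fell at an adjusted p under 0.05, against 17.8% of all 19937 genes called higher, 14.9% called lower and 32.7% called in either direction. Their median difference was 1.06 log2, beside 0.015 over all genes. In 6 of the 8, all NICD1 arrays lay above all control arrays, against 23.7% of all genes, and in 0 of the 8 below them, against 19.7%. At a minimum of 2-fold, 4 of the 8 were called higher, against 4.65% of all genes. Each difference is the NICD1 mean less the control mean in log2 units, SD are over n = 3 arrays, and adjusted p-values come from limma with Benjamini-Hochberg adjustment over all genes.

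**Figure D1:**
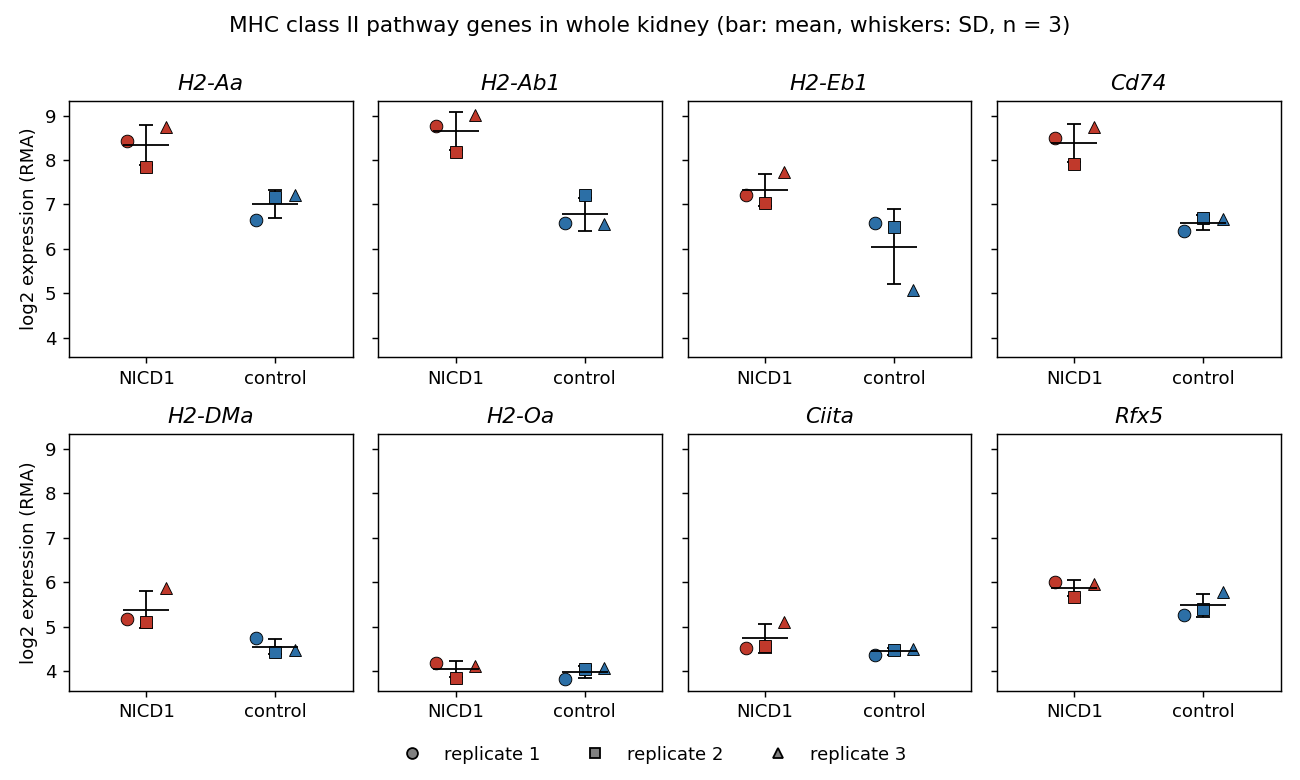
Log2 expression (vertical axis) of the 8 measured members on each array, with NICD1 (red) left of control (blue), bars at the mean and whiskers of SD (n = 3), and symbols for replicates. H2-Aa, H2-Ab1, H2-Eb1, Cd74 and H2-DMa stand clear of their controls, and H2-Oa and Rfx5 overlap.

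H2-Ab1, the beta chain of the I-A molecule, stood at 8.76, 8.17 and 9.0 in NICD1 replicates 1 to 3, against 6.57, 7.21 and 6.55 in control replicates 1 to 3. Every NICD1 value lay nearly 1 log2 unit or more above every control value. The means of 8.65 ± 0.43 in NICD1 and 6.78 ± 0.37 in controls lay 3.65-fold apart (1.87 log2, SE 0.24, adjusted p = 0.000256). Its partner H2-Aa, the I-A alpha chain, was at 8.44, 7.84 and 8.74 in NICD1 kidneys, against 6.64, 7.17 and 7.22 in controls. The groups did not overlap, and the means of 8.34 ± 0.45 in NICD1 and 7.01 ± 0.32 in controls differed 2.52-fold (1.33 log2, SE 0.23, adjusted p = 0.00168). The 2 chains, which are needed in equal number for the dimer, thus both rose, and whether one rose more than the other was not tested.

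H2-Eb1, the beta chain of the I-E molecule, was at 7.22, 7.04 and 7.72 in NICD1 kidneys, against 6.58, 6.49 and 5.08 in controls. Control replicate 3 lay far below the other 2 controls, so the control mean of 6.05 ± 0.84 had the widest spread of any member, beside 7.33 ± 0.35 in NICD1. The difference was 2.42-fold (1.28 log2, SE 0.36, adjusted p = 0.0223). Without control replicate 3 it was 0.79 log2, a smaller gap measured with less spread (adjusted p = 0.0182), and the call was lost without NICD1 replicate 3 (1.08, adjusted p = 0.0744) and with trended, robust variances (adjusted p = 0.0720). H2-Ea, the alpha chain that pairs with H2-Eb1 and is silent in some mouse strains, was at 3.63 ± 0.14 in NICD1 and 3.59 ± 0.14 in controls (0.05 log2, adjusted p = 0.828).

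Cd74, the invariant chain, read 8.50, 7.91 and 8.74 in NICD1 kidneys, against 6.40, 6.71 and 6.67 in controls. The lowest NICD1 array was above the highest control by more than the range of the controls. Means of 8.38 ± 0.43 in NICD1 and 6.59 ± 0.17 in controls differed 3.47-fold (1.79 log2, SE 0.20, adjusted p = 0.000109), with the lowest adjusted p of the members. By size of difference, H2-Ab1 ranked 247 and Cd74 282 from the top of 19937 genes, and H2-Aa and H2-Eb1 ranked 538 and 594.

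Of the peptide exchange genes, H2-DMa passed the test and H2-Oa did not, and the difference between them was not tested. H2-DMa, the DM alpha chain, was at 5.18, 5.12 and 5.87 in NICD1 kidneys, against 4.75, 4.43 and 4.48 in controls. NICD1 replicate 3 was the highest, the groups stayed apart, and the means of 5.39 ± 0.42 in NICD1 and 4.55 ± 0.17 in controls gave a 1.79-fold difference (0.84 log2, SE 0.20, adjusted p = 0.00882). H2-Oa, the DO alpha chain, which is made mainly in B cells and thymus, read 4.19, 3.84 and 4.11 in NICD1 kidneys, against 3.83, 4.05 and 4.06 in controls. The groups overlapped throughout (0.07 log2, SE 0.12, adjusted p = 0.765), and the sign of the difference turned when arrays were centred on their medians (-0.06). Its beta chain partner H2-Ob was at 4.31 ± 0.12 in NICD1 and 4.19 ± 0.04 in controls (0.12 log2, adjusted p = 0.473). H2-Oa and Ciita were among the dimmest 40% of genes, where RMA values compress differences, and no detection calls were used here.

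Neither regulator passed the test, which can miss differences as small as theirs. Ciita, the coactivator on which class II transcription depends, was at 4.53, 4.57 and 5.12 in NICD1 kidneys, against 4.36, 4.49 and 4.51 in controls. All NICD1 values lay above all control values, the nearest pair almost touching, and NICD1 replicate 3 stood apart from the other 2. The means of 4.74 ± 0.33 in NICD1 and 4.45 ± 0.08 in controls differed by 0.29 log2 (SE 0.16, adjusted p = 0.219), or by 0.10 without NICD1 replicate 3 (adjusted p = 0.568). Rfx5, a subunit of the RFX factor that binds the X box, read 6.01, 5.67 and 5.96 in NICD1 kidneys, against 5.26, 5.41 and 5.77 in controls. Control replicate 3 lay above NICD1 replicate 2, and the difference of 0.40 log2 (SE 0.15, adjusted p = 0.0766) passed only without control replicate 3 (0.54, adjusted p = 0.0231) or NICD1 replicate 2 (0.50, adjusted p = 0.0490).

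Among genes of the route by which cells trim the invariant chain and class II antigens, the counts called lay near the shares over all genes. Of 9 processing and turnover genes, 2 rose and 2 fell (median -0.01 log2), beside 17.8% of all genes called higher and 14.9% called lower, shares against which the counts of the lists below can be read too. Ctss, cathepsin S, the protease that makes the last cuts of the invariant chain, was at 10.19, 9.10 and 9.21 in NICD1 kidneys, against 5.32, 5.76 and 6.04 in controls. That 13.9-fold difference (3.79 log2, SE 0.28, adjusted p = 1.05e-05) was the largest of any gene in the pathway lists. Ifi30, a thiol reductase that unfolds antigens in the endosome, rose by 0.52 log2 (SE 0.10, adjusted p = 0.00259). Ctsl, the cathepsin that does the work of cathepsin S in thymic epithelium, stood at 8.98 ± 0.09 in NICD1 and 9.04 ± 0.29 in controls (adjusted p = 0.826). Marchf8, a ubiquitin ligase that removes class II molecules from the surface, fell by 0.45 log2 (adjusted p = 0.00810), and the asparagine endopeptidase Lgmn fell by 0.34 (adjusted p = 0.0317). Both calls were lost under quantile normalization (adjusted p = 0.0562 and 0.0555). Under that setting 3 of the 9 genes were called higher and 0 lower (median 0.15 log2). Ctsb, not called as reported (0.14 log2, adjusted p = 0.401), was then among those called higher (0.35 log2, adjusted p = 0.0326). The call of Lgmn was also lost with a replicate block (adjusted p = 0.0658) and without any 1 array other than NICD1 replicate 2. Marchf1, the ligase of dendritic and B cells, was at 4.67 ± 0.07 in NICD1 and 4.68 ± 0.14 in controls.

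**Figure D2:**
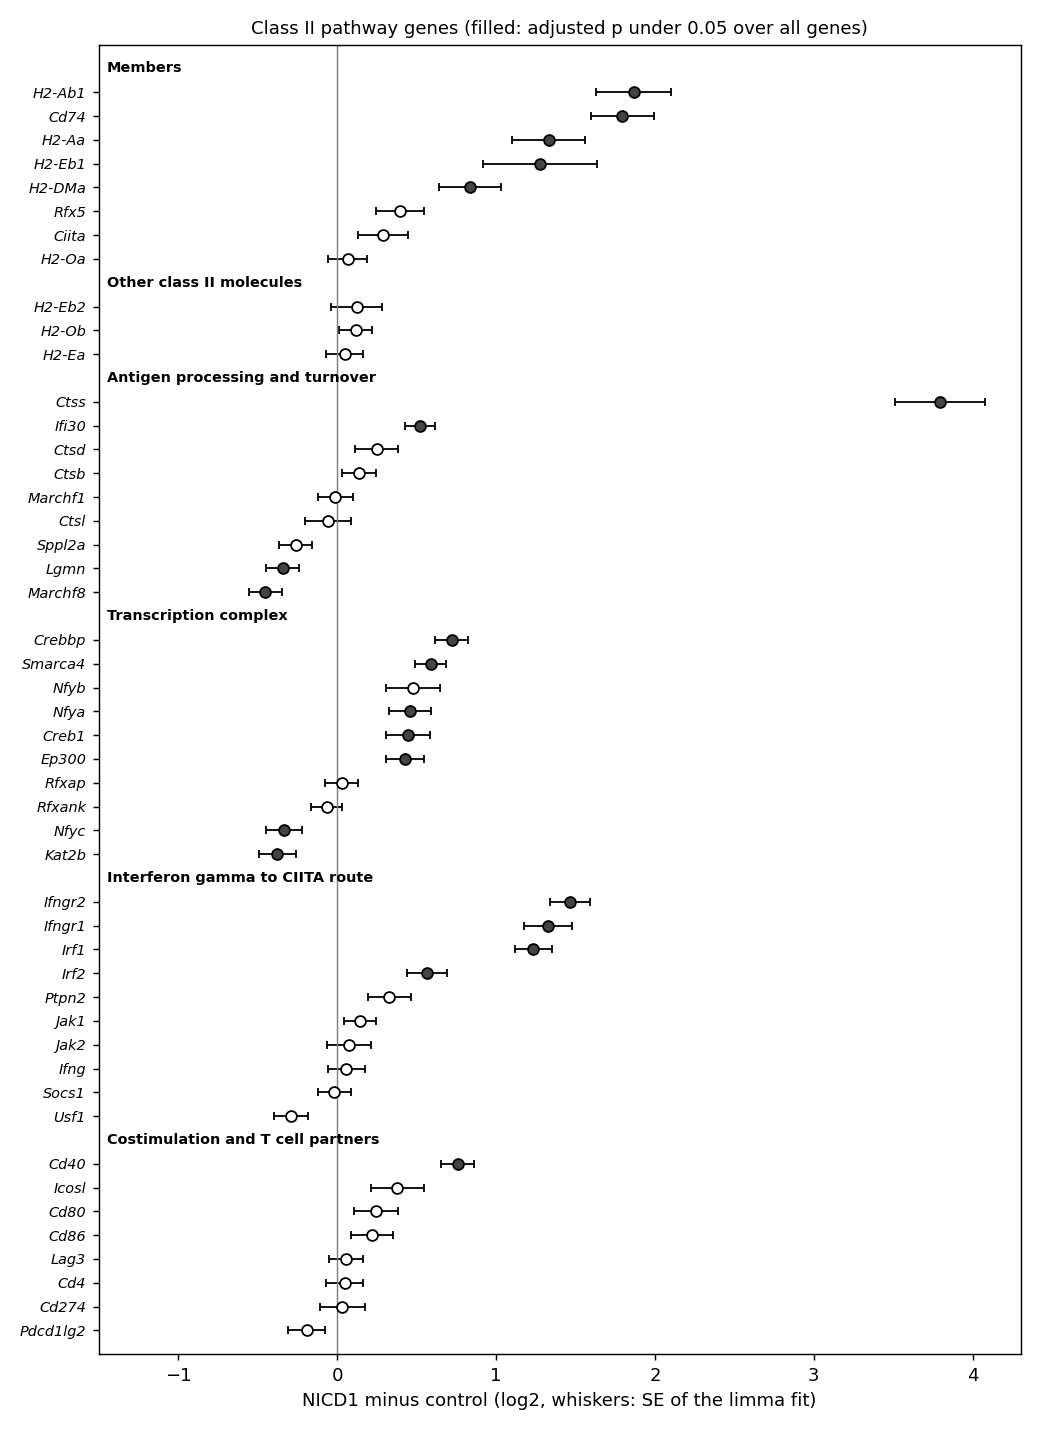
Difference between NICD1 and control (horizontal axis, log2, positive where NICD1 is higher) with the SE of the fit for the members and 5 related gene lists, filled where adjusted p is under 0.05 over all genes. Ctss at 3.79 lies apart from the other processing genes, and the interferon gamma receptor genes lie near 1.4 while Ifng lies near 0.

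The partners of RFX and CIITA on the promoter moved in both directions and by less than 1 log2. Of 10 genes of the transcription complex, 5 rose and 2 fell (median 0.44 log2), against 32.7% of all genes called in either direction. The acetyltransferase gene Crebbp rose by 0.72 log2 (SE 0.10, adjusted p = 0.000515) and the chromatin remodelling ATPase Smarca4 by 0.59 (SE 0.10, adjusted p = 0.00136). Nfya, Creb1 and Ep300 rose by 0.46, 0.44 and 0.43, calls that centring of the arrays ended (adjusted p = 0.0870, 0.108 and 0.0809). The calls of Creb1 and Ep300 were also lost without NICD1 replicate 1 or 2 or control replicate 2 or 3. That of Nfya was lost without NICD1 replicate 1 or control replicate 3. Nfyc, another NF-Y subunit, fell by 0.33, a call lost under quantile normalization (adjusted p = 0.101) and without any 1 of 5 arrays (all but NICD1 replicate 2), and the acetyltransferase Kat2b fell by 0.38 (adjusted p = 0.0326), a call lost without NICD1 replicate 3 or any 1 of the controls. The other RFX subunits, Rfxap and Rfxank, were at 6.43 ± 0.05 and 5.59 ± 0.07 in NICD1, against 6.40 ± 0.13 and 5.65 ± 0.05 in controls (adjusted p = 0.884 and 0.691).

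Upstream of Ciita, both interferon gamma receptor chains were higher in NICD1 kidneys and the ligand was not called. Of 10 measured genes of the interferon gamma route, 4 rose and 0 fell (median 0.24 log2), against 17.8% of all genes called higher. Ifngr2 was at 8.89, 8.54 and 8.58 in NICD1 kidneys, against 7.07, 7.31 and 7.24 in controls (1.47 log2, SE 0.12, adjusted p = 2.25e-05). Ifngr1, the ligand-binding chain, was at 8.59, 8.53 and 8.07 in NICD1 kidneys, against 6.93, 7.19 and 7.09 in controls (1.33 log2, SE 0.15, adjusted p = 0.000132). Both receptor genes kept the groups well apart. Irf1, a factor that binds the interferon-inducible Ciita promoter, rose by 1.24 log2 (SE 0.12, adjusted p = 4.09e-05), with 6.48, 6.35 and 6.72 in NICD1 kidneys, against 5.28, 5.30 and 5.25 in controls, and Irf2 rose by 0.57 (adjusted p = 0.00732). Ifng itself was at 3.29 ± 0.16 in NICD1 and 3.24 ± 0.10 in controls (0.06 log2, adjusted p = 0.785), a dim value that turned negative with centring. Jak1 and Jak2, the kinases of the receptor, and Socs1, its feedback inhibitor, differed by 0.14, 0.08 and -0.02 log2 (adjusted p = 0.346, 0.751 and 0.936).

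Of 8 costimulatory genes and T cell partners of class II, 1 rose and 0 fell (median 0.14 log2), a share near the 17.8% of all genes called higher. Cd40, through which T cells stimulate antigen-presenting cells, rose by 0.76 log2 (SE 0.11, adjusted p = 0.000482). Cd80 and Cd86, the ligands of CD28, were at 3.91 ± 0.09 and 3.71 ± 0.24 in NICD1, against 3.67 ± 0.25 and 3.49 ± 0.08 in controls (adjusted p = 0.229 and 0.263). Cd4, the coreceptor that binds class II, was at 4.04 ± 0.19 in NICD1 and 3.99 ± 0.05 in controls (adjusted p = 0.820). The remaining class II molecules, H2-Eb2, H2-Ea and H2-Ob, gave 0 calls by limma, and 0 at an unadjusted p under 0.05.

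Along chromosome 17, genes called higher lay beside dim genes that were not called. From H2-Oa to H2-Ea, the gene order of GRCm38.p6 holds 15 genes, 13 of them measured here, when protein-coding genes and H2-Ea are counted. Brd2, between H2-Oa and H2-DMa, rose by 0.59 log2 (adjusted p = 0.00307). Among the genes so counted, H2-Ab1, H2-Aa and H2-Eb1 lie side by side. The next ones on either side of them, H2-Ob (0.12 log2) and H2-Eb2 (0.12), were not called and turned just below 0 with centring. Both, like H2-Oa and H2-Ea, were among the dimmest 40% of genes, where RMA values compress differences. The peptide transporter and immunoproteasome genes of class I presentation that lie between H2-DMb1 and H2-Ob rose by 1.41 (Psmb9), 2.62 (Tap1), 2.11 (Psmb8) and 1.55 log2 (Tap2), each at an adjusted p of 4.36e-05 or lower. Cd74, Ciita and Rfx5 lie on other chromosomes, 18, 16 and 3.

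**Figure D3:**
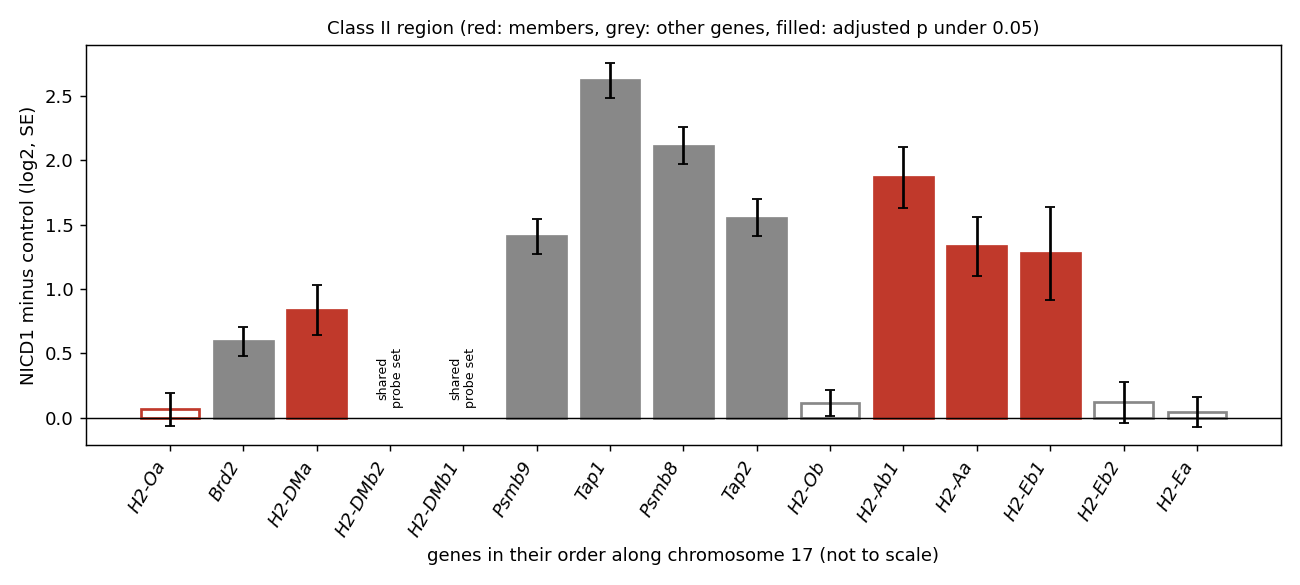
Difference between NICD1 and control (bars on the vertical axis, log2, whiskers of SE) for protein-coding genes from H2-Oa to H2-Ea, H2-Ea included. Genes stand in their order along chromosome 17, members in red and other genes in grey, filled where adjusted p is under 0.05. H2-Ab1, H2-Aa and H2-Eb1, at 1.87, 1.33 and 1.28, stand between uncalled H2-Ob and H2-Eb2.

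Leukocyte and macrophage markers were higher in NICD1 kidneys together with the class II genes, and their part in the result was not tested. Most B, T and dendritic cell markers were not called. Of 7 pan-leukocyte markers, 7 rose (median 1.07 log2), and their mean level lay between 5.99 and 6.94 in NICD1 kidneys, against 4.97 to 5.26 in controls. Of 14 macrophage markers, 12 rose and 1 fell (median 1.44 log2), with a mean level of 5.93 to 6.59 in NICD1 and 4.84 to 4.93 in controls. Cd14, Itgam and C1qb rose by 2.79, 2.41 and 2.47 log2, Mertk fell by 1.14, and Csf1r differed by -0.05 (adjusted p = 0.842). The mean of H2-Aa, H2-Ab1, H2-Eb1 and Cd74 was 8.17 ± 0.41 in NICD1 and 6.61 ± 0.26 in controls.

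Of 11 dendritic cell markers, 4 rose and 0 fell (median 0.07 log2), against 17.8% of all genes called higher, with a mean level of 4.48 to 4.69 in NICD1 and 4.27 to 4.39 in controls. With arrays centred on their medians, 4 rose and 1, Clec9a, fell (-0.41 log2, adjusted p = 0.0416), and the list's median was -0.05 log2. Irf8, Irf4, Clec10a and Itgax rose by 0.49, 0.79, 0.90 and 1.06 log2, of which Irf8 alone was called without any 1 array. Itgax lost its call with trended, robust variances (adjusted p = 0.0623), with array weights (adjusted p = 0.0653) and without NICD1 replicate 3 or control replicate 1 or 2. Irf4 lost its call without control replicate 1, and Clec10a without any 1 control. Flt3, Zbtb46, Xcr1 and Clec9a were at 4.42, 5.51, 3.54 and 2.92 in NICD1, against 4.61, 5.52, 3.48 and 3.21 in controls, with adjusted p from 0.154 to 0.958. Cd209a, Ccr7 and Batf3 were not called either. Of these uncalled markers, all but Zbtb46 and Batf3 were among the dimmest 40% of genes, as were the called Irf4 and Clec10a. Of 7 B cell markers, 0 rose and 1, Ms4a1, fell by 0.45 log2 (adjusted p = 0.0206), a call lost without NICD1 replicate 2 or control replicate 2 (adjusted p = 0.0616 and 0.0757), and the list's mean level was 3.42 to 3.67 in NICD1 and 3.60 to 3.66 in controls. Of 7 T cell markers, 2 rose, Cd8a by 1.38 and Cd3e by 0.30 log2, the call of Cd3e being lost under centring (adjusted p = 0.197), under quantile normalization (adjusted p = 0.135) and when NICD1 replicate 1, 2 or 3 or control replicate 2 or 3 was left out, with a mean level of 4.09 to 4.40 in NICD1 and 4.03 in each control. RMA values have no true zero, so a low level does not show that a marker was absent.

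**Figure D4:**
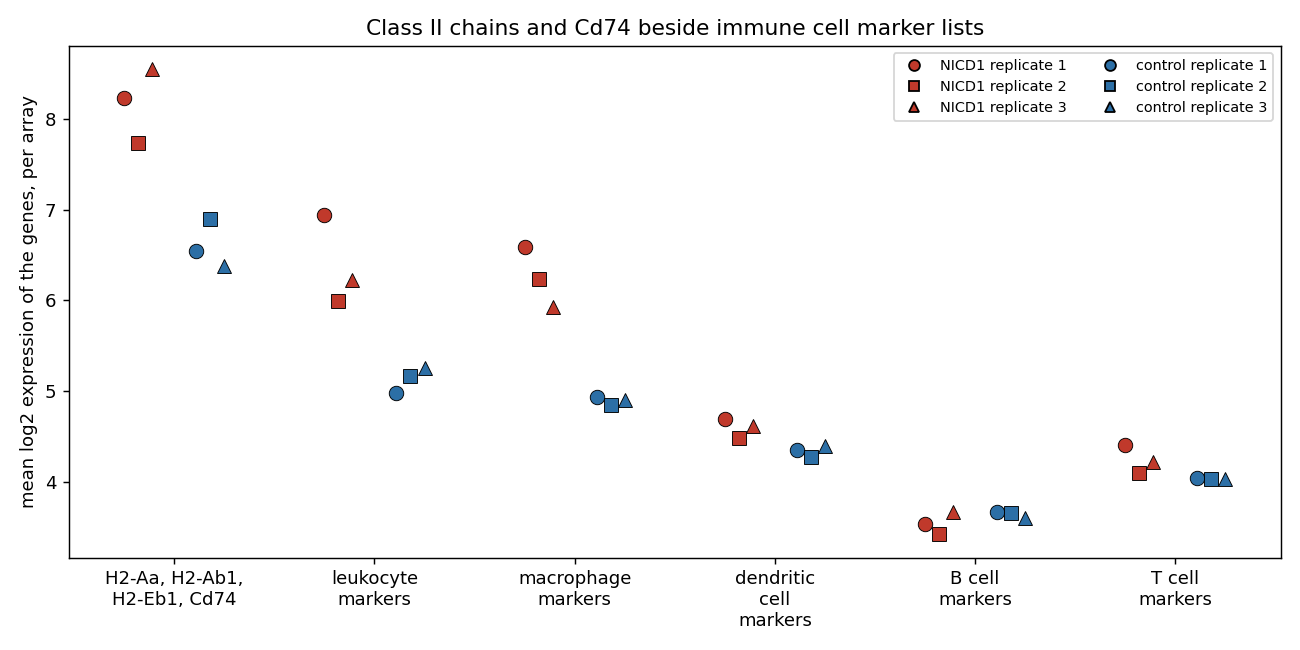
Mean log2 expression per array (vertical axis) of H2-Aa, H2-Ab1, H2-Eb1 and Cd74 and of 5 marker lists, NICD1 in red left of control in blue, with a symbol per replicate. The class II mean is highest in NICD1 replicate 3 and the leukocyte and macrophage means in NICD1 replicate 1, while B cell markers overlap between groups.

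The order of the NICD1 arrays is given as a description, and differences in it between lists were not tested. NICD1 replicate 3 held the highest value for 6 of the 8 measured members, H2-Aa, H2-Ab1, H2-Eb1, H2-DMa, Cd74 and Ciita, and NICD1 replicate 2 the lowest for 7 of them. Over all genes, replicate 3 was the highest NICD1 array for 36.6% and replicate 2 the lowest for 30.5%, and among genes called higher, replicate 3 was the highest for 19.5%. Leukocyte markers were also lowest in replicate 2 for 6 of 7, and T cell markers for 5 of 7, but replicate 1 was the highest for 7 of 7 leukocyte, 11 of 14 macrophage and 5 of 7 T cell markers. Replicate 3 was the lowest for 10 of 14 macrophage markers. B cell markers, low in both groups, ordered the arrays as the members did, with replicate 3 the highest for 6 of 7 and replicate 2 the lowest for 5, and replicate 3 was also the highest for 6 of 8 proximal tubule markers. Of the 10 interferon gamma route genes, 5 were highest in replicate 1, 1 in replicate 2 and 4 in replicate 3, and 3 were lowest in replicate 2. Irf1, 1 of these, was highest in replicate 3 and lowest in replicate 2, whereas Ifngr1 and Ifngr2 were highest in replicate 1, as was Ctss. Predicted genes without an established name were left out of a search outside the lists. The genes then closest to the mean profile of H2-Aa, H2-Ab1, H2-Eb1 and Cd74 over the 6 arrays were Rps6ka6, Pold1, Pbrm1, Exo1 and Hnrnpk, with Pearson r from 0.996 to 0.998. The 6 points share the gap between the 2 groups, and these correlations describe 6 arrays without a test.

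The arrays matched their labels at the targeted gene: Notch1 read 10.29, 10.30 and 9.99 in NICD1 replicates 1 to 3, against 6.65, 6.59 and 6.45 in the controls. Markers of the proximal tubule were lower in NICD1 for 8 of 8 genes, at a mean level of 6.73 to 7.81 in NICD1 and at or above 10.9 in each control. Of 6 markers of other kidney epithelium, 5 were lower and 1, Umod, higher in NICD1 (median -1.72 log2), at a mean level of 7.25 to 7.66 in NICD1 and 8.90 to 9.06 in controls. The call of Umod was lost under centring (adjusted p = 0.193), with a replicate block (adjusted p = 0.0726) and without NICD1 replicate 1 or 2 or control replicate 1 or 3. Endothelial markers, another cell type that can carry class II, fell for 4 of 7 genes and rose for 0. Pearson correlations across the 28187 tested probe sets were at least 0.986 within NICD1 and at least 0.991 within controls, and at most 0.945 between the groups. With arrays centred on their medians, the typical gene shifted to -0.11 log2, against 0.015 as deposited, and 39.4% of calls were higher, against 54.4%. The 5 members called higher were called so under that scaling as well.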

How the data were processed

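Whole-kidney total RNA from 3 NICD1 and 3 control samples was measured on Affymetrix arrays. The deposited values are log2 expression per probe set, which the authors normalized in GeneSpring with RMA16, per the labels' protocols; no version is stated in the labels. RMA equalizes arrays at the probe level and compresses differences of dim genes. Of 34760 probe sets, 6573 numbered below the annotated range were left out. Of the annotated ones, 21640 had 1 symbol and 1321 several, and 99.6% of Entrez identifiers matched GRCm38.p6 gene names. The brightest single-symbol probe set stood for each of 19937 genes; each measured member has 1.

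The test was limma 3.58.1 under R 4.3.3 (moderated, two-sided, Benjamini-Hochberg over all genes, threshold 0.05). The members and gene lists were chosen with earlier results of these data known, and Csf1r, Mertk, Itgax, Umod, the uncalled dendritic cell markers and the neighbouring genes on chromosome 17 were named after their values were seen. Other named genes come from the lists, up to 3 per marker list by lowest p, and from the 5 closest profiles outside them, predicted genes left out. Related lists held 4 genes not analysed here besides those on the shared probe set. The fit was first tested on simulated data with known changes. It recovered 10.4% of 67 changes of 0.5 log2, 74.2% of 62 of 1 log2 and 93.0% of 71 of 2 log2. Small differences were thus mostly missed there, so a gene that was not called is not shown to be unchanged. Far more genes changed in the real data, so these rates need not hold there. Alternatives covered probe set choice, scaling, a filter on dim genes, the variance model, array weights, thresholds, the features tested, a replicate block and the removal of single arrays.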

Additional observations from a re-analysis of the deposited data

Results flagged for a closer look

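The probe set that H2-DMb1, the DM beta chain, shares with its near copy H2-DMb2 stands outside the comparison of the members, since its signal cannot be assigned to either gene. It drew attention because it was higher in NICD1 than in control kidneys, by 1.78 log2 (SE 0.19, adjusted p = 0.000152 by limma over all 28187 probe sets tested). It read 6.60, 6.40 and 7.03 in NICD1 replicates 1 to 3, against 4.62, 4.91 and 5.16 in control replicates 1 to 3, with no overlap. As for most measured members, NICD1 replicate 3 was the highest and replicate 2 the lowest of the NICD1 arrays.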

How the results depend on the processing

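Of the 16 alternatives, H2-Aa, H2-Ab1 and Cd74 were called higher under all, with differences of 1.08 to 1.58, 1.61 to 2.10 and 1.58 to 2.03 log2. H2-DMa was called under all but the minimum change of 2-fold. The number of members called higher was 5 under most settings, 4 with trended and robust variances, at an adjusted p under 0.01 and at a minimum change of 2-fold, and 4 to 6 when 1 array was left out. The members' median difference ranged from 0.80 (without control replicate 3) to 1.20 log2 when 1 array was left out. A minimum change of 2-fold left 1984 genes changed, 927 higher and 1057 lower, against 6529, 3551 and 2978 without it. H2-Oa, never called, turned sign with centring (-0.0573), with array weights (-0.0382) and without NICD1 replicate 1 (-0.0052) or control replicate 1, its values lying between -0.0110 and 0.168 when 1 array was left out; the cause was not tested. The labels do not say whether same-numbered samples are paired. The deviations of such samples from their group means correlated at -0.069, -0.012 and -0.070. No NICD1 array correlated best with the control of its own number. With so few arrays these values cannot show whether samples were paired. With the replicate block 5981 genes changed and 5 members were called higher. Dim members such as H2-Oa and Ciita are limited by signal over background, which is not known here.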
